A study of Drosophila melanogaster with 2 samples.

Results

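Lk6, larp, CG18428, tara and Ras85D are 5 of 13945 protein-coding genes of the fly, and each lies beside candidate peaks that a Huckebein ChIP-seq experiment ranked as reproducible but that are not in its thresholded peak list. They were chosen from the deposited values themselves, out of the genes near strong pooled candidate peaks. Such a candidate had a −log10 irreproducible discovery rate (IDR) of at least 2, an IDR of at most 0.01, and was absent from the pooled thresholded list. Not every gene near an absent candidate was taken: 198 protein-coding genes had one, strong or weak, in the gene or within 5 kb. The strength and the absence of these candidates are therefore a description, with no test. Chromatin came from entire Drosophila melanogaster embryos of the transgenic hkb-GFP strain, aged 0 to 24 h, in which Huckebein is fused to eGFP, and was precipitated with an antibody against GFP. Both biological replicates belong to the same group. The labels name a control experiment, and its part in the deposited lists was not examined. As no control (untagged or input) was used here, binding of the fusion protein and signal from any other source cannot be told apart. A site is therefore the position of a candidate peak and no more. Whole embryos of all these ages were mixed, and the cells behind a peak are unknown. Each list gives peaks with a signal value, the authors' own measure, of unstated unit, which ranks peaks within a list. The number of reads behind the lists is unknown, and their precision with it.

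Huckebein is a zinc finger transcription factor made at both poles of the early embryo, where it helps to set the limits of the mesoderm and to specify the gut ends. Its gene is switched on through the Torso receptor, which signals through Ras, Raf and the MAP kinase and lifts repression by Capicua. Ras85D encodes the small GTPase Ras of that cascade. Lk6 encodes the fly relative of the MNK kinases, which act below MAP kinases and phosphorylate the cap-binding factor eIF4E. The product of larp is a La-related RNA-binding protein that associates with the poly(A)-binding protein, and tara encodes Taranis, a nuclear protein first placed in the trithorax group. CG18428 is known here by its annotation symbol only.

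The sequences around the strongest absent summit of each gene, and around the strongest one inside tara, are shown because these candidates are not in the thresholded list. Each covers 50 bases on either side of the summit on the plus strand, read from the RefSeq Release 6 assembly, and the capitals mark the 11 bases centred on the summit.
Lk6, chr3R:11761008-11761108: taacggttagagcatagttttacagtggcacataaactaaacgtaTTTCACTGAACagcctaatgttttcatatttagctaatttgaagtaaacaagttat
larp, chr3R:28326545-28326645: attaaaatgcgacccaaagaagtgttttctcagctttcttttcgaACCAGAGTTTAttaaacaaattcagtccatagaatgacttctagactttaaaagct
CG18428, chr3R:24109131-24109231: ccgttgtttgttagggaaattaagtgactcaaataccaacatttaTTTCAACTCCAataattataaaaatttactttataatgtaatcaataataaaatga
tara, upstream, chr3R:16224445-16224545: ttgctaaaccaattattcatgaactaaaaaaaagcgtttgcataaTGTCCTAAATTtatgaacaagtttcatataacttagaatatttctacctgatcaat
tara, intron, chr3R:16236919-16237019: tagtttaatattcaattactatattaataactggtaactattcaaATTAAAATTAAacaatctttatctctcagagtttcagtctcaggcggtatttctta
Ras85D, chr3R:9513142-9513242: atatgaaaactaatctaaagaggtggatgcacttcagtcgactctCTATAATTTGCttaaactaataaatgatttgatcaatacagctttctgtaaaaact

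Of 94831 pooled candidates, 7392 passed the IDR threshold (7.79%), and 172 of these were absent from the thresholded list of 7220 peaks (2.33%). The absent candidates were unevenly spread: 111 of 1709 passing candidates were absent on 3R (6.5%), the arm of all 5 genes, and 38 of 1340 on 2L (2.84%). On 2R, 3L and X the shares were 0.497%, 0.428% and 0.395%, and chromosome 4 had none of 30. The absent candidates were not weak, with a median signal value of 116 against 107 for listed ones. Of the 100 and the 1000 passing candidates with the highest signal value, 6 (6.0%) and 32 (3.2%) were absent. Among the 6, 4 belong to Lk6, larp, CG18428 and tara, as strength was part of the choice of genes.

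In the genes and the 5 kb to either side of each, 37 pooled candidates passed, of which 23 were absent and 14 were listed. The 23 make up 13.4% of all absent candidates, which follows from how the genes were picked. For Lk6 and Ras85D every passing candidate in the window was absent, 2 each, as for 65 of the 8028 genes with a passing one (0.81%). The CG18428 window had 3 absent and 1 listed, larp had 2 and 8, and tara 14 and 5. Over the genome, 198 of 13945 protein-coding genes had an absent candidate in this window (1.42%), and 133 of 3421 on 3R (3.89%). There were 2 or more in 111 genes (0.796%), and no other protein-coding gene had as many as tara (1 of 13945, 0.00717%), whose length of 34679 bp also makes it the longest of the 5.

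**Figure D1:**
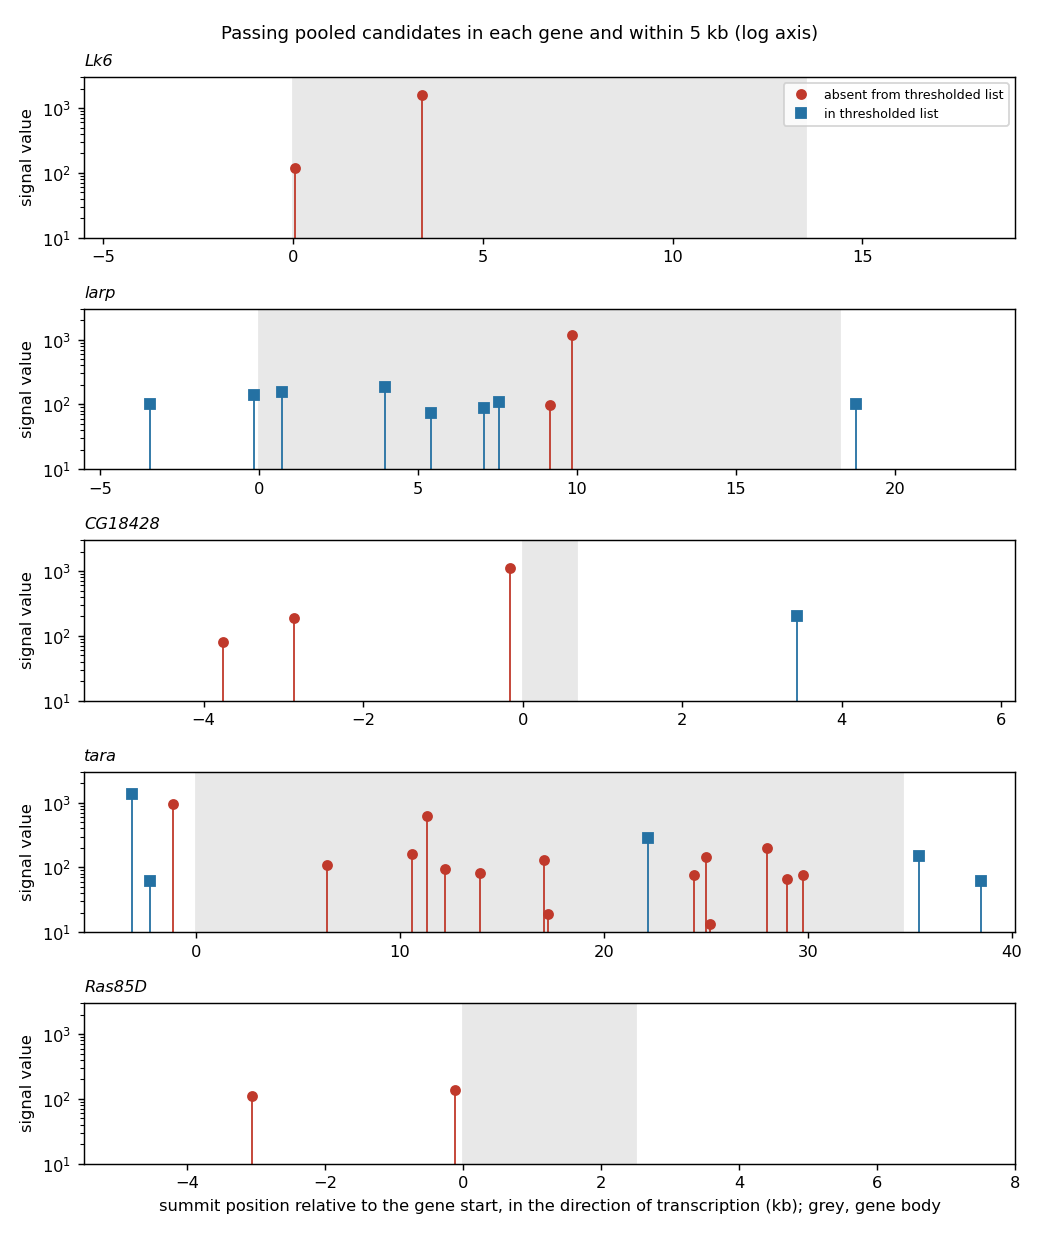
Pooled candidates that passed the IDR threshold in each of the 5 genes and within 5 kb, with the summit position relative to the gene start in kb on the x axis and the pooled signal value on a log y axis. Circles are absent from the thresholded list, squares are in it, and grey marks the gene: the strongest candidate of Lk6 (1579), larp (1163) and CG18428 (1126) is absent, while near tara a listed peak of 1340 stands beside an absent one of 956.

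Ras85D, the gene nearest to the signal that turns hkb on, had the weakest of the strongest candidates. Its summit lay 125 bp upstream of the only annotated start, at chr3R:9513000-9513383, with a signal value of 139 in the pooled list, 76.4 in replicate 1 and 58.5 in replicate 2. This ranked 2506 of the pooled candidates, 2679 in replicate 1 and 2815 in replicate 2, so the candidate passed in each list without being strong, and the word does not describe Ras85D as it does the other genes. The other absent candidate of the window, at chr3R:9515935-9516318, had a signal value of 110 in the pooled list, 67.7 in replicate 1 and 31.9 in replicate 2. It passed in replicate 1 and not in replicate 2, where its −log10 IDR was 1.86. Its summit was 120 bp from the nearest starts, which belong to CG8176 and Kdm3, a histone demethylase gene, and 3060 bp from that of Ras85D. Which of these genes the site belongs to is not given by its position.

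Lk6 held the strongest absent candidate of the 5 genes. It lies at chr3R:11760862-11761236, in an intron, 979 bp upstream of the start of the shorter transcript Lk6-RB and 3399 bp inside the gene record. The signal value was 1579 in the pooled list, 889 in replicate 1 and 663 in replicate 2. These values took rank 14 of the pooled list, 12 of replicate 1 and 14 of replicate 2, so the site was among the strongest in every list. A weaker absent candidate covered the outer start, at chr3R:11764211-11764594, with its summit 54 bp inside the 5′ untranslated region. Its signal values were 119 pooled, 65.9 in replicate 1 and 47.7 in replicate 2, and it passed in all 3 ranked lists. The thresholded list thus holds no peak in Lk6 or within 5 kb of it. The nearest listed peaks were far weaker than 1579, at 72.4 and 84.1, and stood 25153 and 12424 bp away from the edges of the absent pair.

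larp differed from Lk6 in that most of its candidates were listed and only the strong one and its neighbour were not. The strong site lies at chr3R:28326414-28326768, in an intron 331 bp upstream of the larp-RA start. It had a signal value of 1163 in the pooled list at rank 41, 674 in replicate 1 at rank 36 and 492 in replicate 2 at rank 48. The other absent candidate, with its summit 691 bp away, had 97.2 pooled, 48.2 in replicate 1, where it passed, and 41.1 in replicate 2, where it did not. The 8 listed peaks of the window had pooled signal values from 72.5 to 183, all below the absent 1163. They include the peak at the outermost start of larp (138, 144 bp upstream) and 1 at the start of Gfat2 (103), which encodes an enzyme of the hexosamine pathway. The nearest listed peak began 1220 bp from the end of the absent pair.

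CG18428 is a short gene of 675 bp, and its strong absent candidate sits on its promoter. The summit at chr3R:24109011-24109392 was 155 bp upstream of the start. The signal value was 1126 in the pooled list at rank 47, 620 in replicate 1 at rank 47 and 506 in replicate 2 at rank 45. The remaining absent candidates of the window lay at the neighbouring gene Syx1A, which encodes the membrane fusion protein Syntaxin 1A. One had 191 pooled, 94.2 in replicate 1 and 94.8 in replicate 2 and was intronic, 711 bp from the nearest Syx1A start. The other had 81.1, 48.7 and 37.3, was 180 bp from that gene's nearest start and did not pass in replicate 2. On the far side of CG18428 a peak of 205 was listed in the pooled list and in those of both replicates, 3598 bp from the absent summit.

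tara showed absent and listed sites side by side. Upstream of the gene, a peak of 1340 at chr3R:16222318-16222656 (rank 26) was listed, with 725 in replicate 1 and 608 in replicate 2. An absent candidate of 956 at chr3R:16224351-16224657 (rank 72) followed 2009 bp further on, 1156 bp upstream of the tara start, with 553 in replicate 1 and 425 in replicate 2. Both ranked high in both replicates, and only the former was in their thresholded lists. Between their summits stood another listed peak of 62.1, so a weak site was kept next to a strong one that was not. For the sites of 1340, 956 and 62.1 the nearest annotated start of any kind was 909, 895 and 7 bp away. None of these starts belongs to a protein-coding gene.

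The other 13 absent candidates lay inside tara, on both sides of the inner start of tara-RB. The strongest was at chr3R:16236797-16237094, 5847 bp upstream of the inner start, with 627 pooled (rank 176), 310 in replicate 1 and 323 in replicate 2. It ranked 234 in replicate 1 and 126 in replicate 2, whose signal values are on separate scales. A candidate 122 bp upstream of the inner start had 130 pooled, 98.8 in replicate 1 and 28.6 in replicate 2, and passed in replicate 1 only. A listed peak of 280, with 176 in replicate 1 and 109 in replicate 2, divided the absent candidates of tara into a run of 8 and a run of 6. Beyond the far end of tara, 2 more peaks were listed, of 151 at 790 bp and of 61.5 at 3804 bp, the latter 18 bp from a start of bor. The absent summits spanned 30907 bp in all. A pair of very low candidates, of 19.0 and 13.3, overlap the absent ones of 130 and 147 and had nearly the same IDR as these, so they are not separate evidence of a site.

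**Figure D2:**
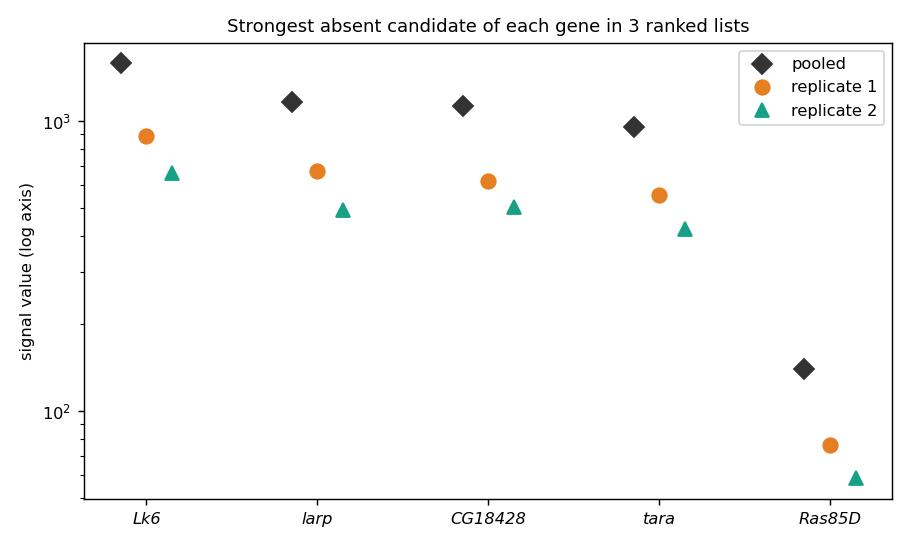
Signal values on a log y axis of the strongest absent candidate of each gene in the pooled ranked list (diamonds) and in the ranked lists of replicate 1 (circles) and replicate 2 (triangles). Lk6, larp, CG18428 and tara lie between 425 and 889 in the replicates, and Ras85D lies at 76.4 and 58.5.

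The replicates gave similar values at these sites. For the strongest absent candidate of each gene the value of replicate 1 was 1.22 to 1.37 times that of replicate 2, against a median of 1.25 (interquartile range 1.08 to 1.44) over the 3561 passing candidates that overlap one passing in both replicates. Their replicate summits lay within 25 bp of the pooled summit. Of the 23 absent candidates near the genes, 19 overlapped a passing candidate of replicate 1, 13 of replicate 2 and 12 of both. At tara the candidates of 130 and 19.0 overlap the same replicate candidates, as do those of 147 and 13.3, so such counts include some replicate candidates repeatedly. Over all 172 absent candidates the shares were 76.2%, 66.9% and 58.7%, and over the listed ones 68.1%, 57.6% and 47.9%. The pooled list contains the reads of both replicates, so these shares are no independent support for a site.

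**Figure D3:**
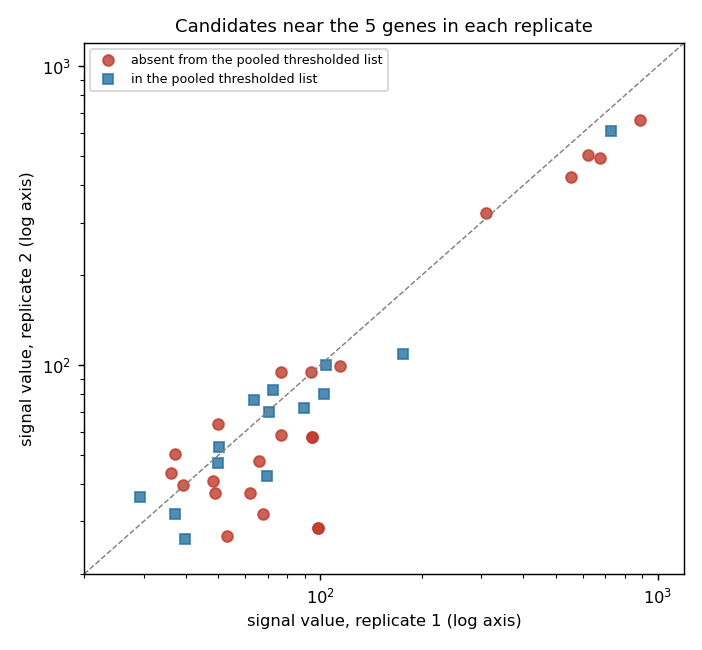
Signal values in replicate 1 (x) and replicate 2 (y), both on log axes, of the highest candidate that overlaps each of the 37 passing pooled candidates near the 5 genes, with equality as a dashed line. Absent (circles) and listed (squares) candidates overlap in range, and the listed site of tara at 725 and 608 lies among the 4 strongest absent ones. Overlapping pooled candidates of tara share replicate values, so their points coincide.

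The same sites were absent from every thresholded list. Of the 23, 19 passed in replicate 1, 13 in replicate 2 and 19 in the ranked list behind the conservative one. None of these was in the matching thresholded list. Those that did not pass could not be in it. Of the 14 listed candidates near the genes, 12 passed in replicate 1 and all 12 were in its list, and 11 passed in replicate 2 and all 11 were in its list. Over the genome, 139 of 5399 passing candidates of replicate 1 were absent from its list (2.57%) and 121 of 4468 of replicate 2 (2.71%). Of these, 127 (91.4%) and 111 (91.7%) overlapped an absent pooled candidate. Only 3 of the 172 pooled absent candidates (1.74%) overlapped a thresholded peak of either replicate, all 3 in replicate 1 and 2 in replicate 2 (1.16%), against 77.8% of the listed ones. A different, listed pooled peak overlapped 2 of the 172 (1.16%). In the conservative thresholded list, 1 of the 172 (0.581%) and 86.8% of the listed ones had an overlapping peak, and 2.27% of that list's own passing candidates were absent. The submitters' notes name 4 input files for the pooled thresholded list and 3 for the ranked lists of the series, and 3 against 2 for each replicate. The notes do not say what the additional input holds, and its part in the absences was not tested. Absent therefore means only that an interval is not in the list. The contents of all 8 lists match the checksums in those notes.

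**Figure D4:**
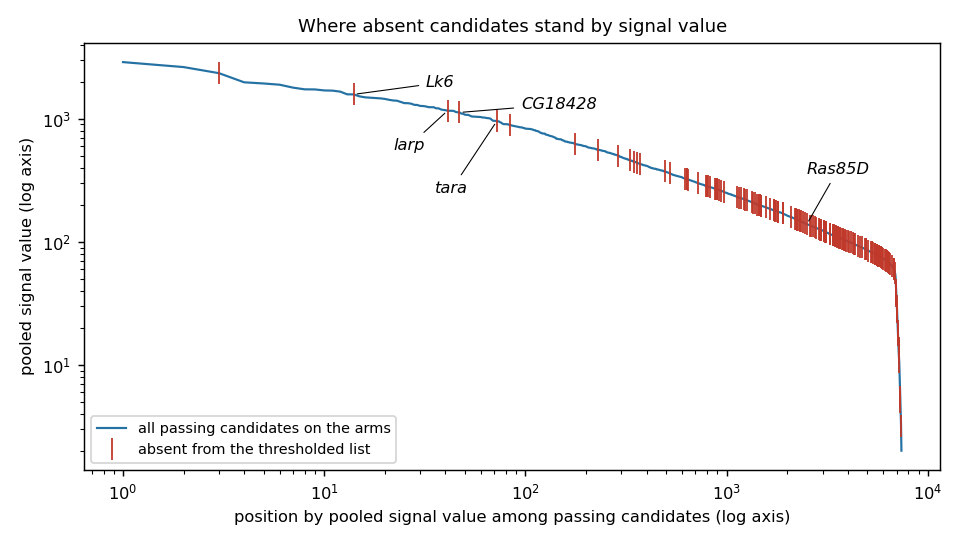
Pooled signal value against position among the passing candidates on the chromosome arms, both on log axes, with absent candidates as red ticks. Absent candidates occur from 2349, nearest to cbt, down to 3.21. Lk6 has 1579, and Ras85D lies in the dense middle at 139.

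Absent candidates came in groups. On the arms, 168 absent candidates formed 68 runs with no listed candidate between, 42 of them with 2 or more, and 142 candidates were in such runs. The tara run of 8 was the longest after a run of 13 on 2L. Some of these candidates overlap one another, and with overlapping ones counted once 153 absent candidates on the arms formed 68 runs, 41 with 2 or more, which held 126, and tara had 12 in place of 14. The absent candidates of Lk6, larp and Ras85D were runs of 2, and those of CG18428 and Syx1A a run of 3. The median distance from an absent summit to the next absent one was 1203 bp and to the next listed one 7152 bp, while a listed summit lay a median of 2434 bp from the next listed one. With overlapping candidates of the same status counted once, these medians were 1593, 7084 and 3128.5 bp. For the strongest absent candidates, the next absent summit was 691 bp away at larp, 2707 at CG18428, 2935 at Ras85D, 3345 at Lk6 and 7590 at tara. The next listed summit was 1093 bp away at tara, 2295 at larp, 3598 at CG18428, 10645 at Ras85D and 16153 at Lk6. Over all absent candidates of a gene, the next listed summit was 1604 to 2295 bp away at larp, 3598 to 6414 at CG18428, 10645 to 12515 at Ras85D and 12808 to 16153 at Lk6. At tara the distances ran from 1093 to 11584 bp with a median of 5787, so only some of its absent candidates were close to a listed one.

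**Figure D5:**
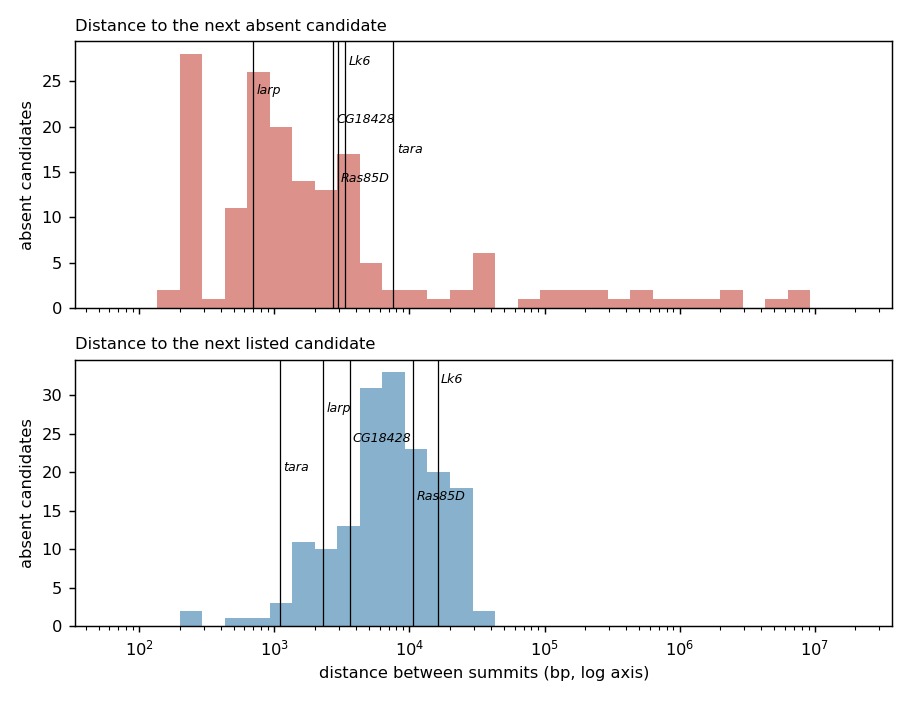
Distances on a log x axis in bp from each of the 168 absent summits on the arms to the next absent summit (upper) and the next listed summit (lower), as counts of absent candidates. Black lines mark the strongest absent candidate of each gene: tara has the largest distance to another absent summit of the 5 (7590 bp) and the smallest to a listed one (1093 bp).

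By annotation, 8 of the 23 absent candidates near the genes lay within 500 bp of any annotated start, and 16 of 23 had their summit in an intron, mostly of tara. Over all candidates on the arms, 53.0% of the absent and 46.7% of the listed ones lay within 500 bp of a start, and 42.9% and 49.3% in introns. Of the strongest sites, those of CG18428, Ras85D and larp met the 500 bp limit and those of Lk6 and tara did not. Just inside the IDR threshold was a listed candidate of the tara window with a −log10 IDR of 2.16 and a signal value of 61.5. The absent one closest to the threshold, in tara, had 2.22 and a signal value of 75.2. Just outside the threshold near the genes was a Ras85D candidate at 1.76 with a signal value of 56.7.

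The sequences printed above are rich in A and T. Their GC content ran from 22.8% for CG18428 to 32.7% for larp, below the median of 34.7% (interquartile range 27.7 to 43.6) for listed summits and of 41.6% for all absent summits. Those medians cover candidates of every strength. Listed windows of similar signal value were not measured apart, so low GC is not shown to be particular to these sites. The weaker absent windows near the genes, not printed, were more varied, from 25.7% at larp to 57.4% at tara. Each printed sequence occurs once on the chromosome arms, and none overlaps an annotated untranslated region. The assembly soft-masks 50 of the 101 bases at CG18428, 27 at the tara intron, 21 at Lk6 and 6 upstream of tara, and 0 at larp and Ras85D. The capitals above do not show this masking. CACGCCC, searched as the core of the Huckebein binding motif, was found on neither strand in any of the 23 absent windows, in 0.762% of listed windows and in 1.19% of all absent ones. GAGAG, bound by the GAGA factor, was in 2 windows, those of Ras85D and the tara intron, in 12.6% of listed windows and in 20.2% of all absent ones. TATAAA was in 3 windows, among them that of the CG18428 promoter, in 20.7% of listed ones and in 13.1% of all absent ones. CAGGTAG, the site of the early embryonic activator Zelda, was in the upstream tara window in 0.582% of listed ones and in 0.595% of all absent ones. TATCGATA, GGTCACACT and CACGTG were in none of the 23 in 0.789%, 0.526% and 0.845% of listed windows, and in 0.595%, 0.0% and 0.0% of all absent ones. TGACTCA, a motif bound by Jun and Fos factors and chosen after the sequences were seen, was in the CG18428 window in 1.04% of listed ones and in 1.79% of all absent ones.

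Other absent candidates of similar strength were few. The strongest of all, with 2349 in the pooled list at rank 3, 1332 in replicate 1 and 1019 in replicate 2, lay on 2L with its nearest start at cbt, a zinc finger factor gene. After the 4 strong sites described above came an intronic one of 890 nearest to trx, which encodes a histone methyltransferase. Outside the 5 genes, this was the absent site nearest in signal value to each of Lk6, larp, CG18428 and tara. The remaining absent sites of the top 10 were the tara intron (627), a further cbt site (560), 1 nearest to CG4297 (503) and 1 nearest to Alh (461). For Ras85D the absent site outside the 5 genes nearest in value was nearest to CG43675 and drn at equal distance (142). Listed peaks of nearly the same pooled value were those nearest to Gapdh2 (1581) for Lk6, CG31886 (1163) for larp, MFS10 (1130) for CG18428, Sox14 (955) for tara and px (139) for Ras85D.

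Genes of the same pathways gave mixed counts. In a list of Ras and MAP kinase signalling genes, 16 of 19 had a passing candidate in the gene or within 5 kb, 14 had a listed one, and the 2 with an absent one were Ras85D and Lk6. Listed peaks there include those of Raf (817), the kinase activated by Ras, aos (604), an inhibitory ligand of the EGF receptor, RasGAP1 (548) and cnk (491), a scaffold of the cascade. In a list of translation control genes, 11 of 13 had a passing candidate, 9 a listed one and 3 an absent one, namely larp, Lk6 and the helicase gene eIF4A, whose highest absent candidate had 91.4. The trithorax group list had the most genes with an absent candidate, 4 of 13, and all 13 had a listed one. The 4 were tara, trx (890), mor (260) and osa (74.0), the last with a listed peak of 1034. All 4 lie on 3R, the arm with most absent candidates, where 133 of 3421 protein-coding genes had one (3.89%). That share also counts genes with no passing candidate, while all 13 genes of the list had one, so the 2 are not alike. The part of the arm in the trithorax count was not tested. Among all 8028 genes with a passing candidate, 2.47% have an absent one, so a gene without one is the usual case. As the lists were built around the 5 genes, their counts are descriptions.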

How the data were processed

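Each of the 2 biological replicates has its own peak lists, and further lists hold both together; replicate numbers are from the labels. Per the labels, chromatin was sonicated to 200 to 800 bp and the build is dm6. The signal value and the integer score of each peak, −log10 of a q-value and, in ranked lists, −log10 of the IDR are as the authors deposited them. The integer score was at least 830 in the thresholded lists. The sources used here name no aligner or peak caller. The control experiment that the labels name was not used here. Each list was scored separately, so replicate values are given singly and not averaged.

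A candidate was absent when its start and end were not in the matching thresholded list. The ranked list that holds all pooled thresholded peaks was taken as their source. A replicate's value is that of its highest candidate overlapping by at least 1 bp. Genes are from Ensembl release 115, and the RefSeq arms have the dm6 coordinates. Motifs were searched on both strands within 50 bp of the summit. Python 3.11.15, pandas 2.3.3 and numpy 2.4.6 were used, and interval matching was tested on 5000 simulated intervals.

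The 5 genes and all lists were chosen with earlier results of these data known. Further genes named are those with the nearest start to an absent candidate near the 5 genes, to the 10 strongest absent candidates or to those closest in signal value, and listed pathway genes. Gfat2, Raf, aos, RasGAP1, cnk and the listed peaks closest in signal value were named after their values were seen. Listed symbols without a match (1 of 20 signalling genes and 1 of 14 translation genes) were left out.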

Additional observations from a re-analysis of the deposited data

How the results depend on the processing

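No paired analysis was possible because there is 1 group. The count of 172 absent candidates was 111 at a −log10 IDR of at least 3 and 99 among the passing candidates in the higher 50% of signal values. It was 170 when absence meant no overlap with any listed peak, 162 in the conservative lists, 157 with overlapping candidates counted once, and 121 to 139 in the lists of a single replicate, the last 2 alternatives chosen after seeing the data. The 23 absent candidates near the genes were 12 to 18 in a single replicate, 17 in the gene bodies, 19 within 1 kb, 21 with overlapping ones counted once and 16 at the stricter IDR. None of the 5 strongest was in a replicate's thresholded list by any overlap tried. In a single replicate, whose list has its own scale, signal values were 663 to 889 for Lk6, 492 to 674 for larp, 506 to 620 for CG18428, 425 to 553 for tara and 58.5 to 76.4 for Ras85D. Measured from the gene record, the summit was 3399 bp from the start of Lk6 and 9845 bp from that of larp. The next absent summit was 745108 bp from that of larp when only candidates in the higher 50% were used. Read depth is unknown, so no limit of detection can be given.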
